A study of Mus musculus with 12 samples.

Results

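The genes described here encode the folding machinery of the endoplasmic reticulum (ER) and the apparatus that removes misfolded proteins from it. They are 34 genes listed by name, each represented by a probe set whose annotation gives exactly 1 gene symbol, and by the probe set with the highest mean where a gene had several. All 34 were measured, out of 19937 genes on the array with such a probe set, and all 34 passed the filter on dim signals. RNA was taken from whole livers of C57BL/6 wild type mice, 6 weeks old by the sample labels, 6 h after a subcutaneous injection. The groups were Insulin-Apo at 55 nmol/kg, in which apolipoprotein A-I carries a single-chain insulin at its N-terminus, Albulin at 55 nmol/kg, which is insulin fused to albumin, insulin glargine at 55 nmol/kg, a long-acting insulin with a changed amino acid sequence, and saline as the control. Both fusion proteins were recombinant products of Escherichia coli. Each group had 3 Affymetrix Mouse Gene 1.0 ST arrays, and all levels below are log2 expression values. The sources count samples and do not say outright that each array is its own mouse, so the spread behind each p value is that between arrays, and their number limits the precision.

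Secreted proteins enter the ER through the SEC61 translocon, are folded by chaperones and disulfide isomerases, and leave in COPII-coated vesicles, while proteins that fail to fold are passed back to the cytosol and degraded (ER-associated degradation). When unfolded proteins accumulate, the sensors IRE1, ATF6 and PERK start the unfolded protein response: IRE1 splices the mRNA of the transcription factor XBP1, ATF6 is cleaved into a transcription factor, and PERK slows translation. The hepatocyte secretes most plasma proteins, and this response sets the amount of folding machinery it carries.

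Part of this response acts at promoters. ATF6, together with the CCAAT-binding factor NF-Y, recognizes the ER stress response element (ERSE, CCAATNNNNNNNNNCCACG), and the shorter ERSE-II (ATTGGNCCACG) and the core of the unfolded protein response element (UPRE, TGACGTG) were also searched on both strands. RefSeq promoters on GRCm38.p6, from 250 bases before the annotated start to 50 bases after it, were given for 28 of the 34 genes. The 6 genes with no promoter in the table were Hyou1, Hspa13, Manf, Derl1, Sec61a1 and Atf6. ERSE was found in 9 of the 28, namely Calr, Canx, Creld2, Derl3, Dnajc3, Hsp90b1, Hspa5, Pdia6 and Syvn1. Over all 27025 genes with a promoter in the table, 0.137% held it in at least 1 promoter. ERSE-II was found in Dnajb11 and Herpud1, against 0.0444% of all genes, and the UPRE core in Hspa5, Sec24d and Txndc5, against 2.22% of all genes. The CCAAT box alone, which is also part of ERSE, was found in 22 of the 28, against 41.1% of all genes. Of the 28 genes, 12 were called higher after Insulin-Apo than after saline, by the rule given below, and 16 were not. ERSE was found in 3 of the 12 and 6 of the 16, and ERSE-II in 1 and 1. The UPRE core was found in 3 of the 12 and 0 of the 16, and the CCAAT box in 9 and 13. The 250 bases before the start are shown for 4 genes, with motif letters in capitals and the spacer of ERSE in lower case. Creld2, Derl3 and Sdf2l1 differed between the 2 fusion proteins, and Hspa5, which encodes the best known target of the response, was added for its 2 motifs. Pdia5 and Dnajb9, also among the called genes with the largest differences, are not shown. No ERSE, ERSE-II or UPRE core was found in their promoters.
Hspa5 (chr2:34771840-34772089, plus strand): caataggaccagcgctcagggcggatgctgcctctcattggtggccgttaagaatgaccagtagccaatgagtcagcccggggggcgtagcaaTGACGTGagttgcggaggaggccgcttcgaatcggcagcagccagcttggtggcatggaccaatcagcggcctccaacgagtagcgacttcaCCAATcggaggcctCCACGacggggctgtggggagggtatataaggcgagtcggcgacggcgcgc
Creld2 (chr15:88819396-88819645, plus strand): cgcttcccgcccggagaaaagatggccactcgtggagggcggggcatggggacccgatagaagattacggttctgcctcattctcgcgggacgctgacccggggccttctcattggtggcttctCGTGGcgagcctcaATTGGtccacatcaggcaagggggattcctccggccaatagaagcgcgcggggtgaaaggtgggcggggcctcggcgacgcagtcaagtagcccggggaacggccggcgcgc
Derl3 (chr10:75893148-75893397, plus strand): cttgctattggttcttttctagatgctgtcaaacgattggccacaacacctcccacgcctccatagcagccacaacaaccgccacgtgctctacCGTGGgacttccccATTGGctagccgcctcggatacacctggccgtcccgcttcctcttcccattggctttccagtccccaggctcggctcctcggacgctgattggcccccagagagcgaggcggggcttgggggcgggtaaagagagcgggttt
Sdf2l1 (chr16:17132384-17132633, minus strand): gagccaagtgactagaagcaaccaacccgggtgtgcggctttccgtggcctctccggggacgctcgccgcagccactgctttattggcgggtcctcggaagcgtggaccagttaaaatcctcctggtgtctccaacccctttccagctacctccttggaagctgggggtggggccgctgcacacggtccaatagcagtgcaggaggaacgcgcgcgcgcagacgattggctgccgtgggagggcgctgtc
Counted from the annotated start, ERSE lay at -65 to -47 in Hspa5, at -126 to -108 in Creld2 and at -156 to -138 in Derl3, reading on the opposite strand in Creld2 and Derl3. The UPRE core of Hspa5 lay at -157 to -151. No ERSE, ERSE-II or UPRE core was found in the Sdf2l1 window, which says only that these letters are not there. A match is a string of letters and not a measured binding site.

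Array medians were alike (7.695 to 7.770), and arrays of a group correlated with each other at mean r of 0.990 to 0.997 across probe sets, with insulin glargine replicate 3 the lowest. That array also stood apart from its group in the ER genes. Its values averaged -0.25 relative to the saline mean, with 10 of 34 genes above it. Insulin glargine replicates 1 and 2 averaged 0.11 and 0.29, with 25 and 30 genes above it. The saline arrays themselves averaged -0.10, 0.01 and 0.08, with 7, 18 and 30 genes above it. The mean of insulin glargine replicate 3 was thus below every saline array, while its count was not. The hepatocyte markers were all measured, and their summed level lay at 17.65 to 17.71 in Insulin-Apo, 17.70 to 17.73 in Albulin, 17.73 to 17.76 in insulin glargine and 17.72 to 17.75 in saline livers. Acinar pancreas and plasma cells are rich in the same ER genes. The summed pancreatic markers lay between 10.276 and 10.501 in every array, and those of plasma and B cells at 9.89 to 9.97 in Insulin-Apo, 10.08 to 10.31 in Albulin, 9.74 to 9.84 in insulin glargine and 9.91 to 9.99 in saline livers. The 8 neutrophil markers other than Lcn2, which hepatocytes also make, summed to 10.38 to 10.62 after Insulin-Apo, 10.56 to 10.63 after Albulin, 10.00 to 10.20 after insulin glargine and 10.11 to 10.22 after saline, so they moved with the fusion proteins, and their part in the results was not tested. Kupffer cell markers overlapped between all groups (13.82 to 14.43 after Insulin-Apo, 14.10 to 14.32 after Albulin, 13.38 to 14.17 after insulin glargine, 13.74 to 14.15 after saline). In whole liver, a change in the number of cells of a type and a change in RNA per cell cannot be told apart.

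After Insulin-Apo, 17 of the 34 genes were higher than after saline and none was lower. A gene was called when limma's B statistic, the log odds of a true difference with 0.01 of genes assumed to change, was over 0. Over all 25989 probe sets tested, 1.34% were called higher and 0.804% lower. The median log2 difference of the 34 genes was 0.42, against -0.02 over all probe sets, and 34 of 34 differences were above 0, against 44.1% of all. The arrays of the 2 groups did not overlap for 28 of the 34 genes, all higher, against 10.4% of all probe sets. Without a single array the sign turned for Sec61b (-0.04 without Insulin-Apo replicate 2), Ern1 (-0.0045 without Insulin-Apo replicate 3) and Herpud1 (-0.01 without saline replicate 2), none of which was called. Of the cell type markers, Lcn2 and the macrophage receptor gene Marco were called higher in the same comparison (1.40 and 0.93), and their part in the differences was not tested.

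**Figure D1:**
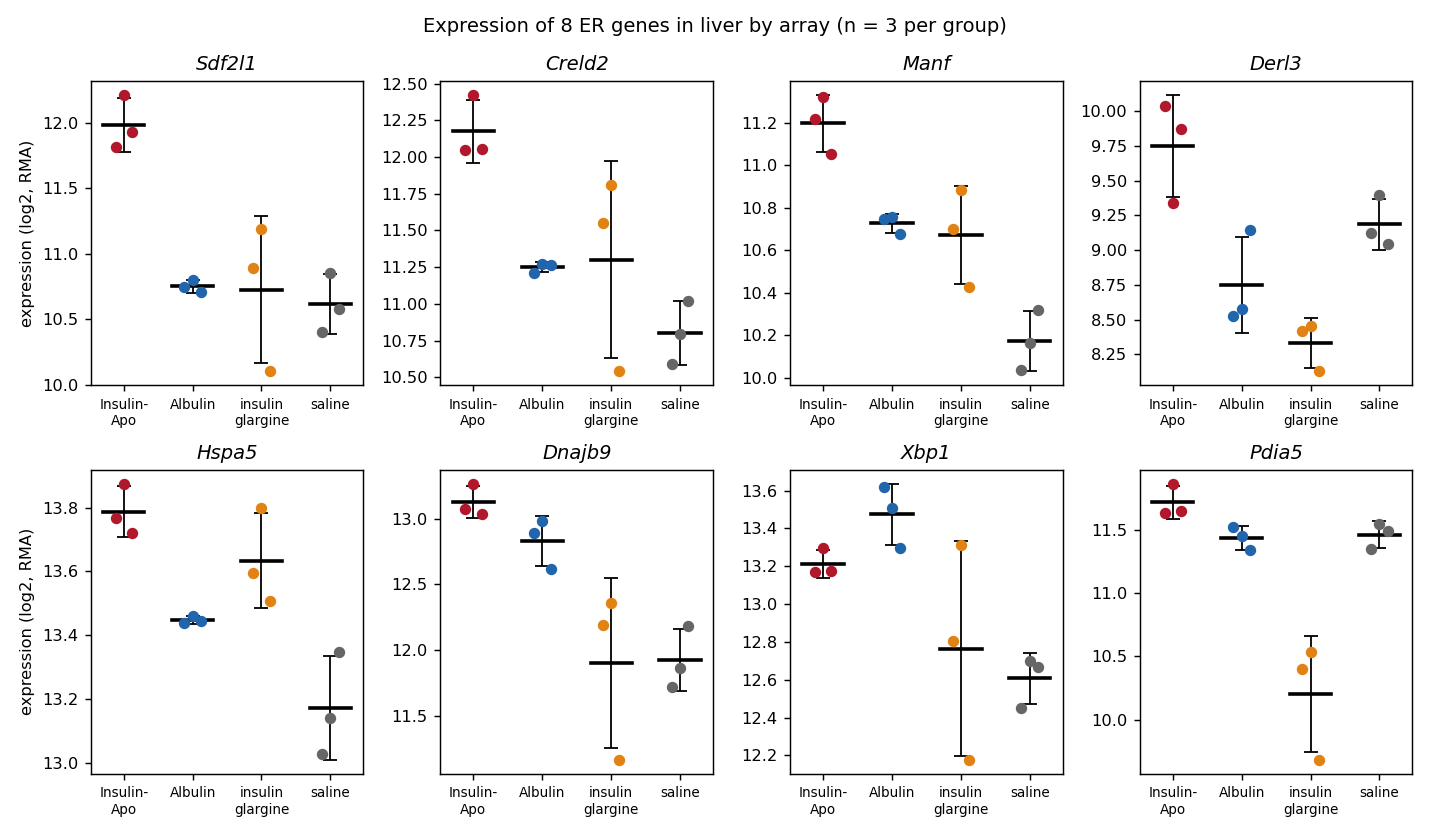
Log2 expression of 8 of the ER genes in each array (points), with the mean and SD of 3 arrays per group (line and bar), for Insulin-Apo, Albulin, insulin glargine and saline. Sdf2l1 and Creld2 stand above all other arrays after Insulin-Apo, Xbp1 is at its highest after Albulin, and Pdia5 lies at 9.68 to 10.53 after insulin glargine, below every other array. The vertical axes do not start at 0.

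Of the luminal Hsp70 and Hsp90 chaperones, 3 of 4 rose after Insulin-Apo. Hspa5 (BiP), the main ER Hsp70, which also holds the stress sensors inactive, had 13.77, 13.88 and 13.72 in Insulin-Apo livers, 13.44, 13.46 and 13.44 in Albulin livers and 13.60, 13.80 and 13.51 in insulin glargine livers, against 13.03, 13.14 and 13.35 in saline livers. All treated arrays lay above the saline arrays, and Insulin-Apo lay above Albulin. The difference between Insulin-Apo and saline was 0.62 (1.53-fold, SE 0.08, limma adjusted p = 0.0042). Hyou1, the nucleotide exchange factor of BiP, had 11.40, 11.65 and 11.50 in Insulin-Apo livers, 11.06, 10.99 and 11.25 in Albulin livers and 10.92, 11.44 and 10.76 in insulin glargine livers, against 10.65, 10.71 and 10.83 in saline livers. Here insulin glargine replicate 3 lay within the saline range, and replicates 1 and 2 lay above it. Insulin-Apo exceeded saline by 0.78 (1.72-fold, SE 0.09, limma adjusted p = 0.00195). Hspa13, a microsomal Hsp70-like ATPase, had 11.52, 11.93 and 11.25 in Insulin-Apo livers, 11.38, 11.36 and 11.19 in Albulin livers and 10.996, 11.14 and 9.77 in insulin glargine livers, against 10.31, 10.31 and 10.54 in saline livers, and it was 1.18 higher after Insulin-Apo (2.27-fold, SE 0.14, adjusted p = 0.00247). Both fusion proteins gave values above every saline array for this gene, while insulin glargine replicate 3 was the lowest of all. Hsp90b1 (GRP94), the ER Hsp90, differed by 0.24 (adjusted p = 0.164) and was not called.

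Of the J-domain co-chaperones, which deliver clients to BiP, and their partner Sdf2l1, 3 of 4 rose. Sdf2l1, found in complexes with Dnajb11, had 11.82, 12.21 and 11.93 in Insulin-Apo livers, 10.75, 10.80 and 10.71 in Albulin livers and 10.89, 11.19 and 10.11 in insulin glargine livers, against 10.40, 10.86 and 10.58 in saline livers. The Insulin-Apo arrays stood alone, and the other 3 groups overlapped. The difference from saline was 1.37 (2.58-fold, SE 0.12, limma adjusted p = 0.000482). Dnajb9 (ERdj4), which is known to repress IRE1 by bringing BiP to it, had 13.07, 13.27 and 13.04 in Insulin-Apo livers, 12.89, 12.98 and 12.62 in Albulin livers and 12.19, 12.36 and 11.16 in insulin glargine livers, against 11.72, 11.86 and 12.18 in saline livers. Both fusion proteins lay above saline and insulin glargine. Insulin-Apo exceeded saline by 1.20 (2.31-fold, SE 0.13, adjusted p = 0.0012). Dnajb11 (ERdj3) had 11.10, 11.15 and 11.11 in Insulin-Apo livers, 10.77, 10.73 and 10.76 in Albulin livers and 10.68, 10.97 and 10.22 in insulin glargine livers, against 10.26, 10.44 and 10.58 in saline livers. Its 3 Insulin-Apo arrays were nearly equal and above all others, with a difference from saline of 0.69 (1.62-fold, SE 0.08, adjusted p = 0.00195). Dnajc3 (p58IPK), an ER co-chaperone also known as an inhibitor of PERK, was 0.23 higher (adjusted p = 0.0829) and was not called.

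Creld2 and Manf encode small proteins of the ER lumen that are also secreted under ER stress, and both rose. Creld2 had 12.05, 12.42 and 12.05 in Insulin-Apo livers, 11.21, 11.27 and 11.26 in Albulin livers and 11.55, 11.81 and 10.54 in insulin glargine livers, against 10.59, 10.80 and 11.02 in saline livers. The Insulin-Apo arrays were the highest, Albulin lay between them and saline, and insulin glargine ran from the lowest array of all to near the Insulin-Apo range. Insulin-Apo exceeded saline by 1.37 (2.59-fold, SE 0.12, limma adjusted p = 0.000482). Manf had 11.22, 11.32 and 11.05 in Insulin-Apo livers, 10.75, 10.76 and 10.68 in Albulin livers and 10.70, 10.88 and 10.43 in insulin glargine livers, against 10.03, 10.16 and 10.32 in saline livers. All 9 arrays of treated livers were above saline, the Insulin-Apo arrays most. The difference between Insulin-Apo and saline was 1.02 (2.03-fold, SE 0.09, adjusted p = 0.000482).

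Of the 6 protein disulfide isomerases, which form and rearrange disulfide bonds, only Txndc5 was called. It had 11.03, 11.31 and 11.07 in Insulin-Apo livers, 10.92, 10.93 and 11.05 in Albulin livers and 10.81, 10.81 and 10.85 in insulin glargine livers, against 10.79, 10.69 and 10.70 in saline livers, a difference between Insulin-Apo and saline of 0.41 (1.33-fold, SE 0.08, limma adjusted p = 0.021). P4hb, Pdia3, Pdia4, Pdia5 and Pdia6 had differences of 0.16, 0.28, 0.34, 0.25 and 0.50, with adjusted p from 0.0352 for Pdia6 to 0.326 for P4hb. The other probe set of Pdia4, with a lower mean level, differed by 0.62. The lectin chaperones calreticulin (Calr, 0.27) and calnexin (Canx, 0.06), which bind monoglucosylated glycoproteins, were not called.

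In ER-associated degradation, 2 of 7 genes were called. Syvn1 (HRD1), the ubiquitin ligase at the center of the pathway, had 10.81, 11.37 and 10.88 in Insulin-Apo livers, 10.62, 10.55 and 10.51 in Albulin livers and 10.72, 10.98 and 10.37 in insulin glargine livers, against 10.08, 10.13 and 10.16 in saline livers. All treated arrays exceeded all saline arrays. Insulin-Apo was 0.89 above saline (1.86-fold, SE 0.12, limma adjusted p = 0.00433). Derl1, a derlin of the retrotranslocation complex, had 12.17, 12.23 and 12.09 in Insulin-Apo livers, 12.12, 12.06 and 12.14 in Albulin livers and 11.77, 11.87 and 11.69 in insulin glargine livers, against 11.82, 11.86 and 11.89 in saline livers, a difference of 0.31 for Insulin-Apo (1.24-fold, SE 0.06, adjusted p = 0.0247). The fusion proteins lay above saline, and insulin glargine overlapped saline. Sel1l, the partner of HRD1, Edem1, which marks glycoproteins for degradation, Derl2 and the HRD1 adaptor Herpud1 differed by 0.39, 0.23, 0.26 and 0.10 and were not called. Derl3 had 10.04, 9.34 and 9.87 in Insulin-Apo livers, 8.53, 8.58 and 9.15 in Albulin livers and 8.41, 8.45 and 8.13 in insulin glargine livers, against 9.12, 9.39 and 9.04 in saline livers. The Insulin-Apo arrays reached above saline with an overlap, 2 of the 3 Albulin arrays and all insulin glargine arrays lay below it, and the difference between Insulin-Apo and saline was 0.56 (adjusted p = 0.151).

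Genes of protein entry into and exit from the ER also rose. Sec61a1, the pore of the translocon, and Ssr1 and Ssr3, subunits of the translocon-associated protein complex, were called, while Sec61b was not (0.13, with 0.71 and 0.43 for its other probe sets). Sec61a1 had 12.97, 13.13 and 12.91 in Insulin-Apo livers, 12.94, 12.83 and 12.84 in Albulin livers and 12.87, 12.95 and 12.50 in insulin glargine livers, against 12.51, 12.57 and 12.65 in saline livers (Insulin-Apo minus saline 0.42, SE 0.07, limma adjusted p = 0.0126). Ssr3 had 12.44, 12.63 and 12.34 in Insulin-Apo livers, 12.43, 12.31 and 12.38 in Albulin livers and 12.24, 12.29 and 11.58 in insulin glargine livers, against 11.73, 11.90 and 12.02 in saline livers (0.59, SE 0.09, adjusted p = 0.00738). For both genes the fusion proteins overlapped each other and lay above saline. Ssr1 had 12.48, 12.78 and 12.33 in Insulin-Apo livers, 12.43, 12.47 and 12.39 in Albulin livers and 12.37, 12.40 and 11.91 in insulin glargine livers, against 11.96, 12.05 and 12.10 in saline livers (0.50, SE 0.10, adjusted p = 0.0239). Sec23b, of the inner COPII coat, had 11.60, 12.04 and 11.42 in Insulin-Apo livers, 11.59, 11.53 and 11.44 in Albulin livers and 11.29, 11.37 and 10.65 in insulin glargine livers, against 10.69, 10.55 and 10.76 in saline livers. The rise after Insulin-Apo was 1.02 (2.03-fold, SE 0.13, adjusted p = 0.0033). Insulin glargine replicate 3 lay within the saline range, and the other treated arrays lay above it. Sec24d, a cargo adaptor of the coat, had 11.23, 11.62 and 11.05 in Insulin-Apo livers, 11.17, 11.13 and 11.13 in Albulin livers and 10.91, 11.08 and 10.99 in insulin glargine livers, against 10.60, 10.40 and 10.51 in saline livers, and Insulin-Apo was 0.80 above saline (1.74-fold, SE 0.12, adjusted p = 0.00612).

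Among the regulators, Xbp1 was called and the sensors were not. Xbp1 had 13.17, 13.30 and 13.18 in Insulin-Apo livers, 13.62, 13.51 and 13.30 in Albulin livers and 12.81, 13.31 and 12.18 in insulin glargine livers, against 12.45, 12.70 and 12.67 in saline livers. The Albulin arrays reached higher than the Insulin-Apo arrays, which they overlapped. Insulin-Apo exceeded saline by 0.61 (1.52-fold, SE 0.10, limma adjusted p = 0.00738), and the probe set does not separate spliced from unspliced mRNA here. Atf6 had 11.39, 11.55 and 11.31 in Insulin-Apo livers, 11.46, 11.32 and 11.46 in Albulin livers and 11.41, 11.68 and 11.23 in insulin glargine livers, against 11.07, 10.97 and 11.08 in saline livers. All 9 treated arrays lay above saline and the 3 treatments overlapped, with differences from saline of 0.37, 0.37 and 0.40 and adjusted p of 0.0264, 0.0243 and 0.0306, none with B over 0. Ern1, which encodes IRE1, had 9.86, 10.02 and 10.17 in Insulin-Apo livers, 9.91, 9.71 and 10.02 in Albulin livers and 9.30, 9.55 and 9.42 in insulin glargine livers, against 9.99, 9.81 and 10.02 in saline livers, so that only insulin glargine lay apart.

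The fit of all 12 arrays called 11 of the 17, without Hspa13, Derl1, Sec61a1, Ssr1, Ssr3 and Xbp1. In the fit of 9 arrays, removal of single arrays ended the calls of Derl1 and Ssr1 (any saline or Albulin array, Insulin-Apo replicates 1 or 2, differences of 0.27 to 0.32 for Derl1 and 0.37 to 0.53 for Ssr1), Txndc5 (any saline array, Albulin replicates 1 or 2, Insulin-Apo replicates 2 or 3, 0.33 to 0.45) and Sec61a1 (Insulin-Apo replicate 2, saline replicates 1 or 2, 0.36 to 0.42).

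**Figure D2:**
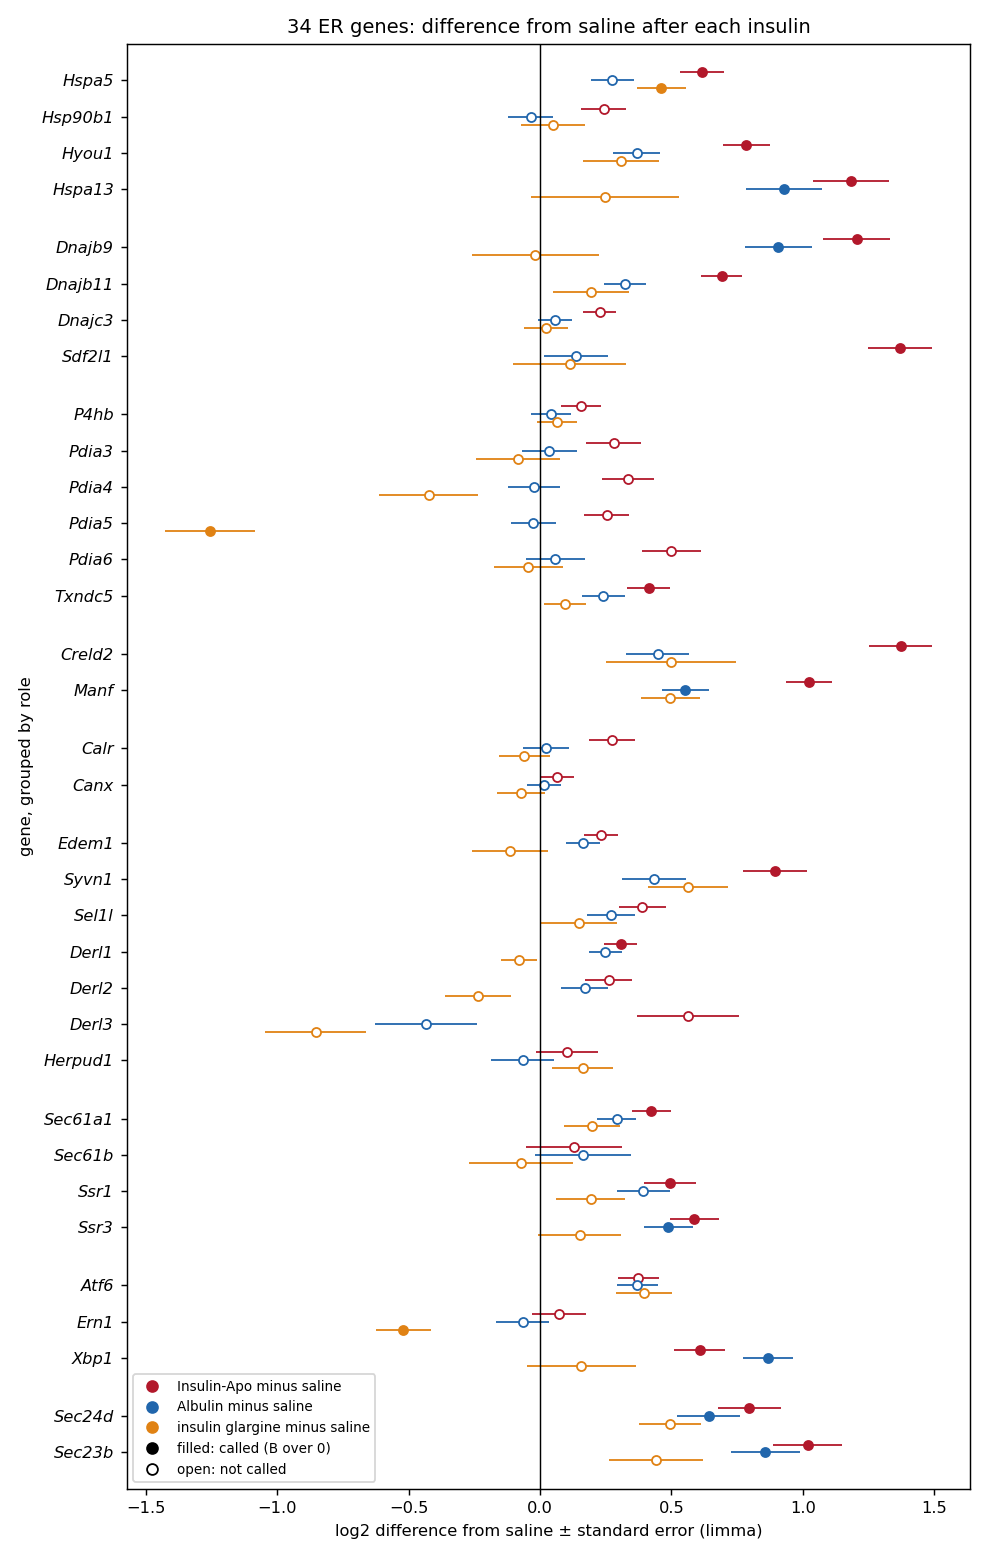
Log2 difference from saline (horizontal axis) with its standard error for each of the 34 genes, grouped by role, after Insulin-Apo, Albulin and insulin glargine, with filled points for called genes and open points for the others. All Insulin-Apo points lie right of 0, the Albulin points lie at or nearer to 0 for most genes, and Pdia5, at -1.26 after insulin glargine, is the point farthest to the left.

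After Albulin, 7 of the 34 genes were higher than after saline and none was lower, against 1.37% of all 25989 probe sets called higher and 1.04% lower. The 7 were Xbp1, Hspa13, Dnajb9, Sec23b, Sec24d, Manf and Ssr3, and all 7 were also called after Insulin-Apo, in a comparison with the same saline arrays. The median difference of the 34 genes was 0.25, against 0.00 over all probe sets, 28 of 34 were above 0 (50.9% of all), and 19 had arrays wholly above the saline arrays (11.6% of all). Without saline replicate 1, P4hb, Pdia3, Pdia6, Calr and Canx turned below 0 (-0.10 to -0.0079). Removal of another single array turned Calr (-0.0018) or Canx (-0.0095) below 0, and Pdia4, Pdia5, Ern1 or Hsp90b1 above 0 (0.0053 to 0.05). None of these genes was called. Xbp1, by whose product many of these genes are induced, had the smallest p of the 7 (0.87, 1.82-fold, SE 0.10, limma adjusted p = 0.00112). Hspa13 was 0.93 higher (1.9-fold, SE 0.14, adjusted p = 0.00535), Dnajb9 0.91 (1.88-fold, SE 0.13, adjusted p = 0.00327) and Sec23b 0.86 (1.81-fold, SE 0.13, adjusted p = 0.00528). Sec24d was 0.64 higher (adjusted p = 0.0141), Manf 0.55 (adjusted p = 0.00666) and Ssr3 0.49 (adjusted p = 0.0148). Co-chaperones (1 of 4 called), vesicle coat (2 of 2) and translocon (1 of 4) were represented, whereas no gene of ER-associated degradation, no disulfide isomerase and no lectin chaperone was called. Yet 4 of the 7 degradation genes had arrays wholly above the saline arrays. At an unadjusted limma p under 0.05, 4 of the 7 were higher and 1, Derl3, was lower (-0.43). Derl1 had an adjusted p under 0.05 without B over 0. Hspa5 (0.28, adjusted p = 0.0935), Hyou1 (0.37, adjusted p = 0.0408), Creld2 (0.45, adjusted p = 0.0639) and Syvn1 (0.43, adjusted p = 0.0742) lay above saline in every array without being called. Sdf2l1 differed by 0.14 with a 95% interval from -0.13 to 0.40. The 4 neutrophil markers S100a8, S100a9, Cxcr2 and Lcn2 were called higher in the same comparison, and their part in these differences was not tested. The fit of all 12 arrays called 3 of the 7, without Hspa13, Dnajb9, Ssr3 and Xbp1, and removal of single arrays ended the calls of Ssr3 (any Albulin array, saline replicates 1 or 2, 0.41 to 0.52) and Sec24d (any Albulin array, saline replicates 2 or 3, 0.59 to 0.65).

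The 2 fusion proteins carry insulin on different partners, apolipoprotein A-I or albumin, and were given at the same dose and time, so they were compared directly. Sdf2l1 (probe set 10438098), Creld2 (10426098), Manf (10596575) and Derl3 (10364093) were higher after Insulin-Apo than after Albulin, and none of the 34 genes was lower, against 0.389% of all probe sets called higher and 0.25% lower. The median difference of the 34 genes was 0.17, against -0.02 over all probe sets. In 32 of the 34 the difference was above 0 (43.4% of all), and for 17 every Insulin-Apo array exceeded every Albulin array (9.02% of all). Without Insulin-Apo replicate 2 the sign turned for Ssr1 (-0.02), Atf6 (-0.07), Sec24d (-0.0044) and Sec23b (-0.01). Atf6 also turned without Albulin replicate 2 (-0.04). Sec61b turned above 0 without Insulin-Apo replicate 3 (0.20) or Albulin replicate 3 (0.07). None of these genes was called. Sdf2l1 differed by 1.23 (2.35-fold, SE 0.12, 95% interval 0.97 to 1.50, limma adjusted p = 0.00804) and Creld2 by 0.92 (1.9-fold, SE 0.12, 95% interval 0.66 to 1.19, adjusted p = 0.0171). Manf differed by 0.47 (1.39-fold, SE 0.09, adjusted p = 0.0727). Derl3, a derlin that is induced by ER stress, differed by 1.00 (2.00-fold, SE 0.19, adjusted p = 0.0754). The last 2 had B over 0 with an adjusted p above 0.05. Derl3 was called against saline after neither fusion protein, and after Albulin it lay below saline, at -0.43. Of the 10 genes called after Insulin-Apo but not after Albulin, only Creld2 and Sdf2l1 were called in this comparison, and the other 8 are not shown to differ between the fusion proteins. For Hspa5 the difference was 0.34 with a 95% interval from 0.16 to 0.52 (adjusted p = 0.136), for Hyou1 0.42 (0.22 to 0.61, adjusted p = 0.0999) and for Dnajb11 0.37 (0.20 to 0.54, adjusted p = 0.0967). Xbp1 ran the other way, at -0.26 (-0.47 to -0.05, adjusted p = 0.277). Sec61b was the other gene below 0 by the probe set used (-0.04, with 0.32 and 0.28 for its other probe sets). For Atf6 the interval ran from -0.17 to 0.18, for Ssr3 from -0.10 to 0.30 and for Hspa13 from -0.06 to 0.57. Only Sdf2l1 and Creld2 remained without Albulin replicate 1 or 2, and removal of single arrays ended the calls of Manf (Insulin-Apo replicates 1 or 2, any Albulin array, 0.41 to 0.48) and Derl3 (Insulin-Apo replicates 1 or 3, Albulin replicates 1 or 2, saline replicate 1, 0.85 to 1.00). The fit of all 12 arrays called Sdf2l1 and Derl3, without Creld2 and Manf.

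**Figure D3:**
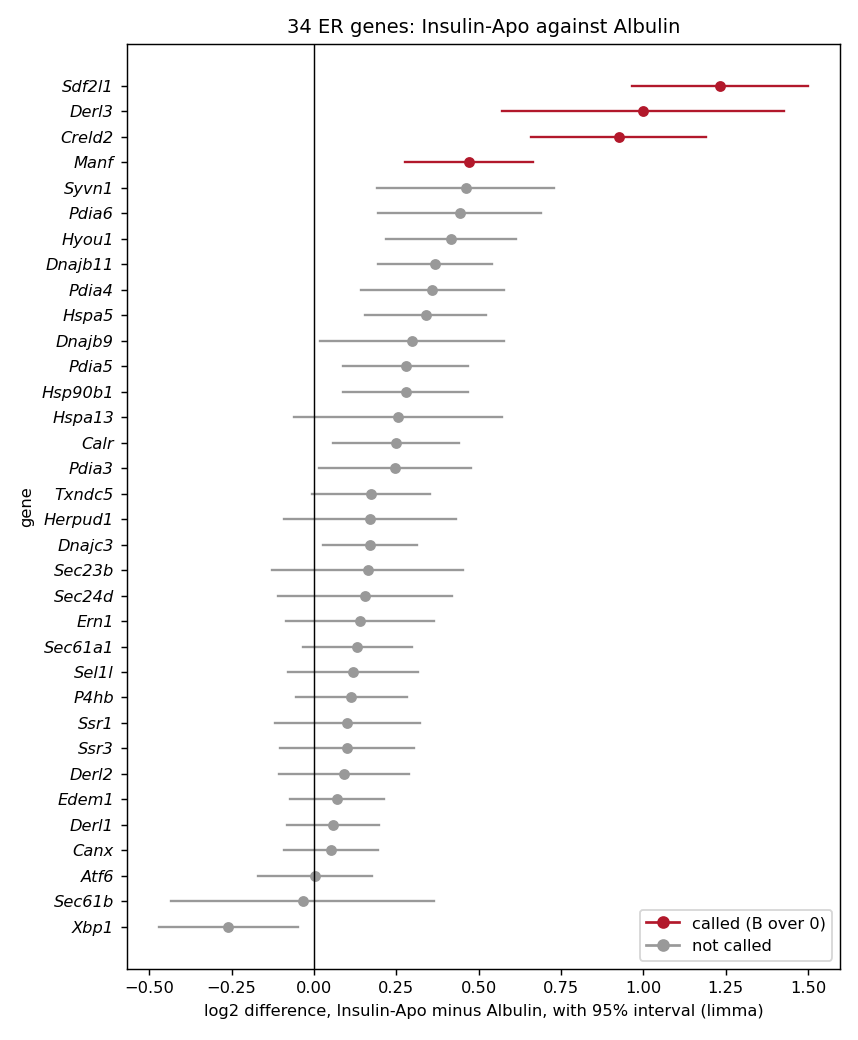
Log2 difference between Insulin-Apo and Albulin (horizontal axis) with its 95% interval for each of the 34 genes, sorted by size, with the called genes in red. Sdf2l1 (1.23), Derl3 (1.00), Creld2 (0.92) and Manf (0.47) are called, and only Xbp1 and, by the probe set used, Sec61b lie left of 0.

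After insulin glargine at the same dose, in a fit of all 12 arrays, 1 gene was higher than after saline (Hspa5) and 2 were lower (Pdia5 and Ern1), with 2.24% and 2.6% of all 26027 probe sets called higher and lower, and the median difference of the 34 genes was 0.10. Hspa5 rose by 0.46 (1.38-fold, SE 0.09, limma adjusted p = 0.00742). Pdia5, a disulfide isomerase known to act on ATF6, had 10.40, 10.53 and 9.68 in insulin glargine livers, 11.63, 11.86 and 11.64 in Insulin-Apo livers and 11.52, 11.45 and 11.34 in Albulin livers, against 11.35, 11.55 and 11.49 in saline livers. The insulin glargine arrays were below all others, and the gene fell by 1.26 on the log2 scale (SE 0.17, adjusted p = 0.000654). Ern1 fell by 0.52 (SE 0.11, adjusted p = 0.00715). Derl3 differed by -0.85 (adjusted p = 0.0126), Manf by 0.50 (adjusted p = 0.0139), Sec24d by 0.49 (adjusted p = 0.017) and Syvn1 by 0.56 (adjusted p = 0.0326), none with B over 0. Without insulin glargine replicate 3, the array that stood apart, 6 of the 34 genes were called against 5.24% of all probe sets: Hspa5 (0.52), Creld2 (0.88), Manf (0.62), Syvn1 (0.72) and Atf6 (0.50) were higher and Pdia5 (-0.995) was lower, while Ern1 (-0.52) was not called. Only Pdia5 was called without Albulin replicate 1, insulin glargine replicate 1 or saline replicate 1. The call of Hspa5 also ended without insulin glargine replicate 2, saline replicate 2, Albulin replicates 2 or 3 and Insulin-Apo replicates 1 or 3 (0.38 to 0.48 over all 9 such arrays), and that of Ern1 without saline replicate 3 and Insulin-Apo replicate 2 (-0.52 to -0.46 over all 6).

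**Figure D4:**
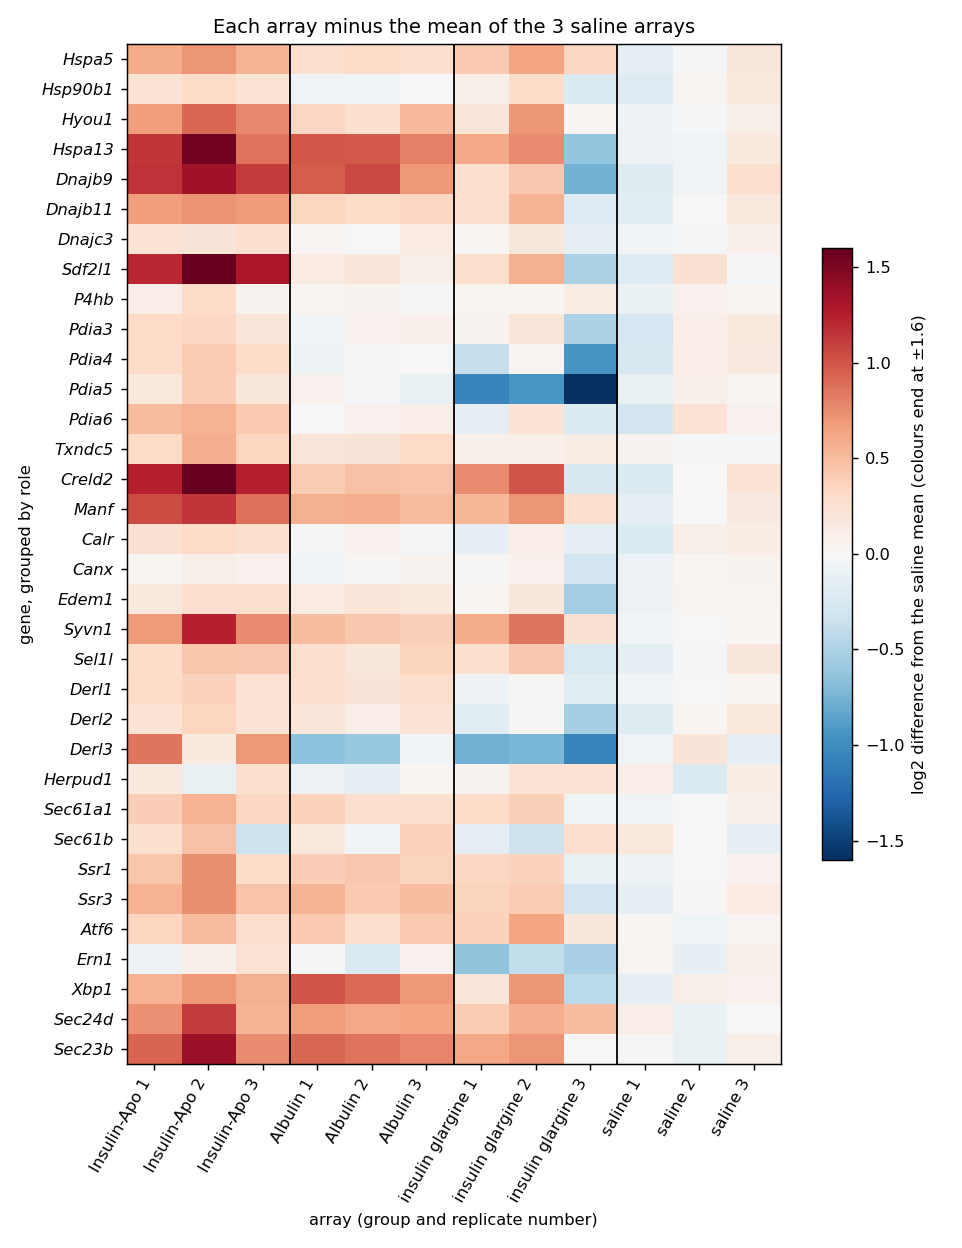
Log2 difference of each array from the mean of the 3 saline arrays, for the 34 genes (down the page, by role) and the 12 arrays (Insulin-Apo, Albulin, insulin glargine, saline), in red where higher and blue where lower. The Insulin-Apo arrays have 33 genes each above the saline mean, the Albulin arrays 26 to 29, and insulin glargine replicate 3, with 10, differs from the other 2 arrays of its group. The saline arrays themselves have 7, 18 and 30. The counts of Albulin and of insulin glargine replicate 3 lie within that range.

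Set against insulin glargine, Insulin-Apo gave higher levels of 6 genes, namely Pdia5, Derl3, Sdf2l1, Dnajb9, Ern1 and Derl1, and lower levels of none, while 2.88% of all probe sets were called higher and 1.96% lower. The median difference of the 34 genes was 0.38, and 32 were above 0 (43.9% of all probe sets). Of the cell type markers, S100a8, S100a9 and Cxcr2 of neutrophils, Marco and Cd68 of macrophages and Kdr of endothelium were called higher and Krt19 of cholangiocytes lower in the same comparison, and their part in the differences was not tested. Differences were above 0 for 8 of 9 neutrophil, 9 of 10 macrophage, 4 of 8 endothelial (-0.76 to 0.81) and 1 of 5 cholangiocyte markers. Pdia5 differed by 1.51 (2.85-fold, SE 0.17, limma adjusted p = 0.000181), Derl3 by 1.42 (2.67-fold, SE 0.19, adjusted p = 0.000641), Sdf2l1 by 1.26 (2.39-fold, SE 0.22, adjusted p = 0.00287) and Dnajb9 by 1.22 (2.33-fold, SE 0.24, adjusted p = 0.00649). Ern1 differed by 0.59 (adjusted p = 0.00345) and Derl1 by 0.39 (adjusted p = 0.00352). In Pdia5 and Ern1, Insulin-Apo was not called against saline and insulin glargine was, whereas in Sdf2l1 and Dnajb9 the reverse held. Hspa5, called in both comparisons with saline, differed by 0.15 between the 2 treatments, with an interval from -0.05 to 0.36. Without insulin glargine replicate 3 the same 6 genes were called, against 4.86% of all probe sets, and the difference was 1.25 for Pdia5, 1.32 for Derl3, 0.95 for Sdf2l1, 0.85 for Dnajb9, 0.59 for Ern1 and 0.34 for Derl1. Only Pdia5 and Derl3 remained without Insulin-Apo replicate 2, where Sdf2l1 differed by 1.14 (adjusted p = 0.0161), while 12 genes were called without insulin glargine replicate 2, the added ones being Hyou1, Dnajb11, Pdia4, Pdia6, Manf and Derl2. Removal of single arrays also ended the calls of Dnajb9 (any Insulin-Apo array, Albulin replicates 1 or 2, saline replicate 2, 1.15 to 1.27), Derl1 (Insulin-Apo replicate 1, insulin glargine replicate 1, 0.35 to 0.39) and Ern1 (Insulin-Apo replicate 3, insulin glargine replicate 1, 0.52 to 0.59).

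Albulin exceeded insulin glargine in Pdia5 (1.23, 2.35-fold, SE 0.17, limma adjusted p = 0.000705) and Derl1 (0.33, 1.26-fold, SE 0.07, adjusted p = 0.00966), against 2.35% of all probe sets called higher and 2.01% lower, and in none of the 34 genes was it lower. The median difference was 0.13. The neutrophil markers S100a8, S100a9, Cxcr2 and Ly6g, the B cell markers Cd79b and Ms4a1 and the endothelial marker Kdr were also called higher in this comparison, and their part in the differences was not tested. Differences were above 0 for 8 of 9 neutrophil, 6 of 7 plasma and B cell and 4 of 8 endothelial markers (-0.66 to 0.68 for the endothelial list). Dnajb9 (0.93, adjusted p = 0.0328), Ern1 (0.45, adjusted p = 0.0173) and Xbp1 (0.71, adjusted p = 0.0529) were not called, and for Sdf2l1 the interval of the difference ran from -0.45 to 0.49. Derl1 was called with all 12 arrays and lost on removal of any single array other than insulin glargine replicate 2 (0.28 to 0.35), which left Pdia5 alone, or Pdia5 with Ern1 where Albulin replicate 2 was removed. Without insulin glargine replicate 3, Pdia5 alone was called (0.97), against 4.59% of all probe sets.

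Beyond the 34 genes, 89 further genes of the same pathways were measured, from 99 listed. After Insulin-Apo 12 of them were higher than after saline and none lower, with a median difference of 0.18, where 1.34% of all probe sets were called higher and 0.804% lower. After Albulin 4 were higher and none lower (median 0.09), where 1.37% and 1.04% of all were called. After insulin glargine 4 were higher and 1 lower (median -0.00), where 2.24% and 2.6% of all were called. Between Insulin-Apo and Albulin limma called none of the 89, although 27 were higher and 2 lower at an unadjusted p under 0.05, against 7.11% and 6.44% of all probe sets. The PERK gene itself, Eif2ak3, had 9.61, 9.88 and 9.59 in Insulin-Apo livers, 9.53, 9.35 and 9.0003 in Albulin livers and 9.27, 9.29 and 8.60 in insulin glargine livers, against 8.63, 8.70 and 8.78 in saline livers. Insulin-Apo was 0.99 above saline (SE 0.13, limma adjusted p = 0.00301), and the Albulin arrays were also above saline (0.59, adjusted p = 0.0251, not called). Downstream of PERK, the transcription factor Atf4 was 0.35 higher after Insulin-Apo (adjusted p = 0.0239) and differed by the same 0.35 after Albulin (adjusted p = 0.0221, not called), with all arrays of both above saline. Ddit3, which encodes CHOP, differed by 0.24 after Insulin-Apo (adjusted p = 0.198). Chac1, a glutathione-degrading enzyme induced by ATF4, had 9.79, 9.77 and 9.75 in Insulin-Apo livers, 11.14, 10.20 and 10.25 in Albulin livers and 8.52, 8.72 and 8.55 in insulin glargine livers, against 8.98, 8.79 and 8.75 in saline livers. Its order was thus Albulin, Insulin-Apo, saline and insulin glargine with no overlap of arrays, and Albulin exceeded saline by 1.69 (adjusted p = 0.00147). For Chac1 neither insulin glargine against saline nor Insulin-Apo against Albulin was called, and Albulin replicate 1 lay well above the other Albulin arrays. Creb3l2, an ER-bound transcription factor cleaved like ATF6, had 10.11, 10.45 and 9.96 in Insulin-Apo livers, 10.45, 10.09 and 9.96 in Albulin livers and 9.16, 9.10 and 8.96 in insulin glargine livers, against 9.11, 9.31 and 9.33 in saline livers. It rose by 0.93 after Insulin-Apo (adjusted p = 0.0066) and by 0.92 after Albulin (adjusted p = 0.00534), and Insulin-Apo (adjusted p = 0.000382) and Albulin (adjusted p = 0.000374) each exceeded insulin glargine by 1.10. Ube2g2, a ubiquitin-conjugating enzyme of ER-associated degradation, was highest after insulin glargine, with 10.53, 10.40 and 10.45 in Insulin-Apo livers, 10.23, 10.08 and 10.34 in Albulin livers and 11.23, 10.91 and 11.26 in insulin glargine livers, against 9.97, 10.07 and 9.89 in saline livers. It rose by 1.15 after insulin glargine (adjusted p = 4.4e-05) and by 0.48 after Insulin-Apo (adjusted p = 0.0102), and the difference from insulin glargine was -0.67 for Insulin-Apo (adjusted p = 0.00116) and -0.92 for Albulin (adjusted p = 0.000142).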

How the data were processed

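Liver RNA was measured on 12 Affymetrix Mouse Gene 1.0 ST arrays. The authors used RMA for background correction and normalization, and deposited 1 log2 value per array for each of 28213 probe sets. Not given in the sources used here are the RMA version, the annotation build and whether RMA was run on the 12 arrays at once. In the platform annotation 21640 probe sets had 1 gene symbol, 1321 several and 5252 none, and genes were named from the first class only. Scanner intensities were not used here.

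Samples were grouped by their labels. A probe set was kept if 2 or more arrays of any group exceeded 5, 25989 in the 9 arrays of Insulin-Apo, Albulin and saline and 26027 in all 12. Following the study's methods, lmFit and eBayes (limma 3.58.1, R 4.3.3, prior proportion 0.01) were fitted on group, on the 9 arrays for the 3 comparisons among those groups and on all 12 for the 3 with insulin glargine, which the methods do not include in the array fit. A gene was called at B over 0. P values were two-sided and adjusted over all probe sets kept (Benjamini-Hochberg), and the intervals are limma's 95% intervals. The script was tested on simulated data. The 34 genes, the 89 further genes and the marker lists were chosen with earlier results of these data known, so the counts are descriptions of these lists. By rule, called genes are given in full, the others by counts and ranges, and of the further genes a few with small p values are named. Ddit3 was named after its values were seen. The UPRE, ERSE and CCAAT motifs were counted in RefSeq promoters (GRCm38.p6). Alternatives were the filter, centring, quantile normalization, a replicate block, a trend in the prior variance, array weights, the arrays in the fit, call rules and leaving out each array. Plots used matplotlib 3.10.9 (Python 3.11.15).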

Additional observations from a re-analysis of the deposited data

How the results depend on the processing

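For the 39 calls of single genes over the 6 comparisons, the alternatives gave 880 values, of which 744 kept their direction and call, 136 lost the call and 0 reversed. The number of genes called, out of 34, was 17 after Insulin-Apo against saline and 11 with all 12 arrays in the fit. After Albulin against saline it was 7, against 3 with all 12 arrays and 11 at an adjusted p under 0.05. For insulin glargine against saline it was 3, against 1 with each array centred on its median, 6 with array quality weights and 8 at an adjusted p under 0.05. For Insulin-Apo against Albulin it was 4, against 2 with the replicate block, 2 with all 12 arrays and 2 at an adjusted p under 0.05 with or without a log2 change of at least 0.58. For Insulin-Apo against insulin glargine it was 6, against 3 with only the arrays of the 2 groups and 14 at an adjusted p under 0.05. For Albulin against insulin glargine it was 2, against 4 at an adjusted p under 0.05 and 1 with a filter at a value over 6, median centring, the replicate block, an intensity trend or only the arrays of the 2 groups. Leaving out single arrays gave 13 to 17, 5 to 10, 1 to 6, 2 to 6, 2 to 12 and 1 to 3 genes in these 6 comparisons, in this order. The 3 arrays per group limit the precision of all these values. Same-numbered arrays deviated together at correlations of -0.27 to 0.15 across probe sets, so the replicate numbers were not taken to pair the arrays, and the block moved the count by over 1.5 times only where given above.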
